A study of Homo sapiens with 9 samples.

Results

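SU-DHL6 and SU-DHL4 are established human lines of diffuse large B-cell lymphoma, a cancer of mature B cells, and their gene expression was compared across genes and functions. All arrays titled with these line names were taken, 2 of SU-DHL6 and 2 of SU-DHL4, which made 4 of the 9 arrays in the study. The study hybridised RNA of 6 lines to an Affymetrix array of human genes: SU-DHL6, SU-DHL4 and Namalwa, all of B cells, with 2 arrays each, and the plasma cell myeloma lines L363, U266 and LP1 with 1 array each. The labels describe both SU-DHL lines as untreated B-cell lymphoma cells grown in RPMI medium with serum, and they name no allele or agent. Namalwa, a Burkitt lymphoma line, entered the comparison for its duplicate spread and as a point of reference. Each line is a single lymphoma kept in culture, so a difference between the lines is a difference between 2 tumours. The labels do not say that duplicates came from separate cultures, so the p-values below measure only the spread between duplicate arrays, which may be technical. Each array measured the RNA of a whole culture, in which fewer cells with a transcript and less of it per cell cannot be told apart.

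Many diffuse large B-cell lymphomas, though not all, resemble B cells of the germinal centre, where B cells divide, mutate their immunoglobulin genes and are selected through their antigen receptor. That receptor is a membrane immunoglobulin, with a heavy chain such as IgM and a kappa or lambda light chain, and it signals through CD79A and CD79B to kinases, phospholipase C and NF-kB. B cells also display peptides to T cells on HLA molecules of class I and class II, and loss of HLA expression is well known in this lymphoma.

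The values are log2 intensities that the authors had normalised by RMA, a method that gives no detection call, so a low value cannot be called absent. Median values of the 4 SU-DHL arrays lay between 6.95 and 6.99. SU-DHL6 array 2 stood apart from all others in its control probe sets, which compare the 3′ with the 5′ end of a transcript and rise when RNA or its copies are shortened. Its ACTB difference (3′ minus 5′) was -0.19 and its GAPDH difference 0.44 on the log2 scale, against -0.74 to -0.47 and -0.09 to 0.07 on the other 8 arrays. The SD of the difference between duplicates was 0.35 for SU-DHL6, 0.24 for SU-DHL4 and 0.22 for Namalwa, and 423 probe sets differed over 2-fold between the SU-DHL6 duplicates against 67 in SU-DHL4. Results are therefore also given without SU-DHL6 array 2 where that ended a call.

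SU-DHL6 and SU-DHL4 differed in 1892 of 22215 probe sets (8.52%) at a Benjamini-Hochberg adjusted p under 0.05 in limma, a linear model with moderated variances. Of all probe sets, 3.75% were higher and 4.77% lower in SU-DHL6. Read at 1 probe set per gene, 1150 of 11963 genes were called (9.61%), 558 higher in SU-DHL6 (4.66%) and 592 lower (4.95%). These shares are the background for every count of genes below, save the counts in runs of neighbouring genes, which have their own. Most differences were modest: 624 called genes differed less than 2-fold, 425 between 2-fold and 4-fold, 101 at least 4-fold and 8 at least 16-fold. The 2 SU-DHL6 values lay on one side of both SU-DHL4 values for all 1150 called genes, but so they did for 52.1% of all genes. A further 103 genes differed at least 2-fold without being called, and in 52 of them the SU-DHL6 duplicates were themselves over 2-fold apart. The SD over probe sets of the difference of line means was 0.480 between SU-DHL6 and SU-DHL4, 0.473 between SU-DHL4 and Namalwa and 0.485 between SU-DHL6 and Namalwa, so the SU-DHL lines lay about as far from each other as from Namalwa.

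How many genes were called depended on single arrays. Leaving out an array also takes the duplicates of its line out of the estimate of spread, so a count can change through that estimate. The SD between duplicates was 0.35 for SU-DHL6 and 0.24 for SU-DHL4. How much of each change below came from the estimate was not tested. Without SU-DHL4 array 1 the count was 314 genes and without array 2 it was 196, while it was 1487 without SU-DHL6 array 1 and 1092 without SU-DHL6 array 2. Of the 1150 genes, 789 were also called without SU-DHL6 array 2, and 179 were called whichever of the 4 arrays was left out. These 179 genes, 93 higher and 86 lower in SU-DHL6, differed by at least 0.95 on the log2 scale with a median of 1.73. Below, a gene is said to have held its call when it was called in each of those 4 fits. Some genes given below as not called gained a call when an array was left out. Among them were CD22, MME and CXCR5 without SU-DHL6 array 2. Without SU-DHL6 array 1 they included CD79B, SPIB, IRF8, BLNK, PLCG2, NFKB1, GNA13 and CXCR4.

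**Figure D1:**
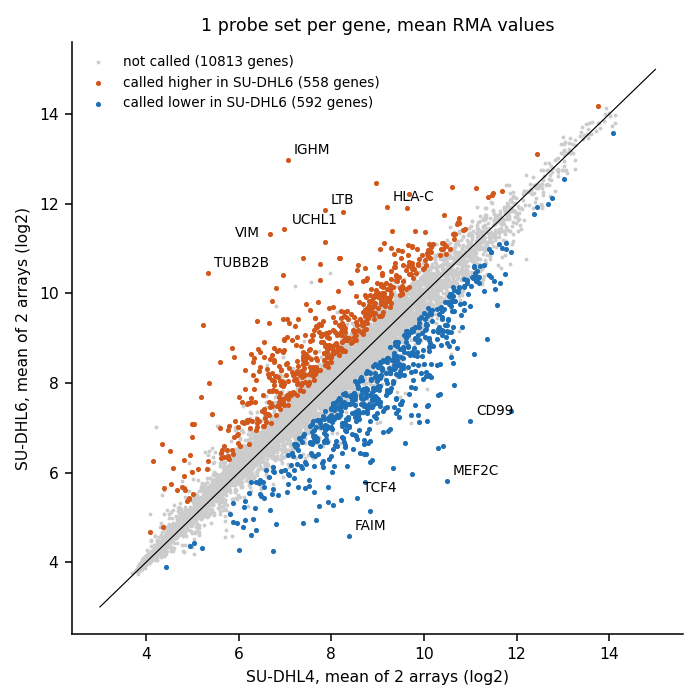
Mean RMA value (log2) of the 2 SU-DHL6 arrays against that of the 2 SU-DHL4 arrays, 1 point per gene, coloured by call, with the line of equal values. The 558 genes called higher and the 592 called lower in SU-DHL6 flank the diagonal, with IGHM far above it and MEF2C far below it.

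The 4 genes given as markers of the pair separated the lines on every array. IGHM, the constant region of the IgM heavy chain, read 7.18 and 6.93 on the SU-DHL4 arrays and 13.11 and 12.86 on the SU-DHL6 arrays. Its log2 difference of 5.93 (SE 0.16, adjusted p = 0.000323) was the largest of the genes named here. Of its other 4 probe sets, 1 was called in the same direction (5.12) and 3 were not called, with differences from -0.44 to 0.24. VIM, the intermediate filament protein vimentin, read 6.62 and 6.71 in SU-DHL4 and 11.01 and 11.66 in SU-DHL6, a difference of 4.67 (SE 0.27, adjusted p = 0.00139). Both genes were thus near the array median in SU-DHL4 and among the brightest in SU-DHL6. MEF2C, a transcription factor of B-cell development and activation, ran the other way, with 10.38 and 10.62 in SU-DHL4 and 5.53 and 6.08 in SU-DHL6 (difference -4.70, SE 0.25, adjusted p = 0.00128). CD99, a surface glycoprotein, read 10.79 and 11.20 in SU-DHL4 and 7.20 and 7.09 in SU-DHL6 (difference -3.85, SE 0.16, adjusted p = 0.000716). All probe sets of MEF2C and of CD99 were called in this direction. On the Namalwa arrays IGHM read 12.50 and 12.79 and MEF2C 9.52 and 8.98, whereas VIM read 6.85 and 6.31 and CD99 7.58 and 7.40. All 4 held their call.

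**Figure D2:**
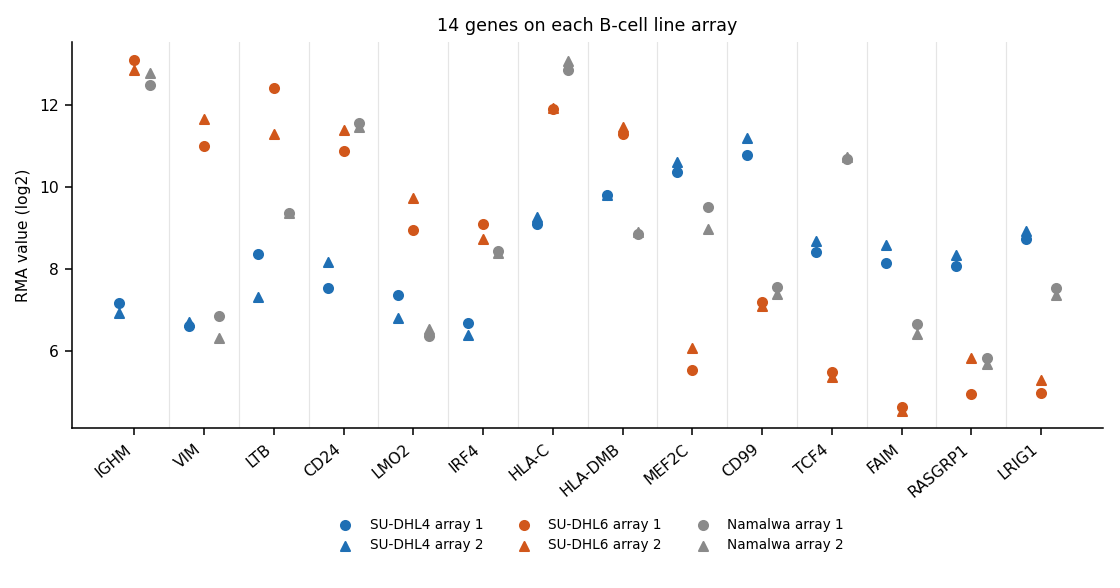
RMA values (log2) of 14 genes on each array of the B-cell lines, circles for array 1 and triangles for array 2. SU-DHL6 lies above SU-DHL4 on every array for the first 8 genes and below it for the last 6, and the Namalwa arrays side with SU-DHL6 for IGHM and CD99 and lie nearer SU-DHL4 for VIM and MEF2C.

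Beyond these markers, the genes most raised in SU-DHL6 came from unrelated families. TUBB2B, a beta-tubulin typical of neurons, read 5.37 and 5.30 in SU-DHL4 and 10.81 and 10.10 in SU-DHL6, a difference of 5.12 (SE 0.23, adjusted p = 0.000764). UCHL1, a ubiquitin hydrolase also abundant in neurons, read 7.11 and 6.83 against 11.60 and 11.25 (4.45, SE 0.16, adjusted p = 0.000594). CUX2, a homeobox factor, read 5.40 and 5.04 against 8.91 and 9.67 (4.07, SE 0.26, adjusted p = 0.0019). Of these 3, Namalwa shared the high level for UCHL1 alone, with 12.20 and 12.29. LTB, lymphotoxin beta, differed by 4.02 (SE 0.47), although its duplicates were about 1 log2 unit apart in both lines, with 8.38 and 7.32 in SU-DHL4 and 12.43 and 11.30 in SU-DHL6. PHGDH, the first enzyme of serine synthesis, was higher by 3.45, CHI3L2, a chitinase-like protein, by 3.40, STAG3, a meiotic cohesin subunit, by 3.31, CD24, a surface glycoprotein of B cells, by 3.29, and IL17RB, an interleukin receptor chain, by 3.13. The 6 probe sets of CD24 were all called higher. SPTBN1, a spectrin, was higher by 2.98 at 1 of its 6 probe sets only, and the other 5 differed by 0.01 to 0.50 without being called. SP140, a nuclear body protein of lymphocytes, was higher by 2.93. LTB lost its call without SU-DHL4 array 2 (adjusted p = 0.0754). CHI3L2 (adjusted p = 0.117 and 0.126) and SP140 (adjusted p = 0.153 and 0.173) lost theirs without either SU-DHL4 array, and the others held.

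Among the genes lowest in SU-DHL6 relative to SU-DHL4, ZMIZ1, a transcriptional coactivator, read 10.38 and 10.43 in SU-DHL4 and 6.14 and 7.06 in SU-DHL6 (difference -3.80, SE 0.31, adjusted p = 0.00297). FAIM, an inhibitor of death-receptor-induced apoptosis in B cells, differed by -3.78, and TUBB6, another beta-tubulin, by -3.77. LRIG1, a membrane inhibitor of growth factor receptors, read 8.73 and 8.94 against 4.99 and 5.30, a difference of -3.69 (SE 0.15, adjusted p = 0.000669). ITGB1, the integrin beta-1 chain, differed by -3.76 at its brightest probe set, but its other 4 probe sets differed by only -0.32 to 0.13 and were not called. FHOD3, a formin, was lower by -3.23 on the log2 scale, TCF4, an E-protein transcription factor, by -3.12, RAB11FIP1, a recycling endosome protein, by -2.94, SCRN1 by -2.92 and the tetraspanin TSPAN13 by -2.92. RASGRP1, an activator of RAS downstream of diacylglycerol, differed by -2.83, PODXL, a sialomucin, by -2.76 and FGD6, a CDC42 exchange factor, by -2.75. FAIM, TUBB6, LRIG1, FHOD3, TCF4 and SCRN1 held their call. ZMIZ1 and FGD6 lost theirs without SU-DHL4 array 2, and RAB11FIP1, TSPAN13, RASGRP1, PODXL and ITGB1 without either SU-DHL4 array, with adjusted p up to 0.152 for TSPAN13.

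Genes that define B cells were bright in both lines. Of 29 measured genes of the B-cell surface list, 7 were higher and 1 lower in SU-DHL6, with a median log2 difference of 0.38 against 0.07 over all genes. These counts were 6 and 2 without SU-DHL6 array 2 and 12 and 0 without array 1. MS4A1, the CD20 antigen, read 12.44 and 12.65 in SU-DHL4 and 12.67 and 12.22 in SU-DHL6 and was not called. The antigen receptor chains CD79A (0.43, adjusted p = 0.133) and CD79B (0.61, adjusted p = 0.149) and the inhibitory co-receptor CD22 (-0.32, adjusted p = 0.546) did not pass the test either. Beside CD24, the called genes were FCRL2, an Fc receptor-like protein (2.37), CD83, an activation marker (1.96), SLAMF1, a lymphocyte adhesion receptor (1.88), CD38, an ectoenzyme of germinal centre and plasma cells (0.92), and the tetraspanin CD37 (0.83) and the costimulatory ligand CD80 (0.77), while FCGR2B, the inhibitory Fc receptor, was lower (-0.89). CD24, FCRL2 and SLAMF1 held their call. The other 5 lost theirs without either SU-DHL4 array, CD80 also without SU-DHL6 array 2 and FCGR2B without SU-DHL6 array 1. CD40, CD44, CD52, CD74 and CD9 were not called, with differences from -0.27 for CD74 to 0.71 for CD52.

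Markers of other cell types did not separate the lines in general. None of 32 T and NK cell genes, 26 myeloid genes or 16 erythroid and platelet genes was called. In the list of epithelial, fibroblast and endothelial genes, 2 of 28 were called (7.14%, against 9.61% of all genes), both lower in SU-DHL6. DCN, the matrix proteoglycan decorin, read 10.68 and 10.62 in SU-DHL4 and 7.93 and 7.97 in SU-DHL6, a difference of -2.70 (SE 0.08, adjusted p = 0.000416). THY1, a surface glycoprotein of fibroblasts and T cells, read 9.65 and 9.26 against 7.24 and 7.23, a difference of -2.22 (SE 0.14, adjusted p = 0.00186). All 4 probe sets of DCN and all 3 of THY1 were called in this direction, and both genes held their call. The mean over the whole list spanned only 6.31 to 6.47 across the 4 arrays, and collagen genes and LUM, other fibroblast products, were not called: COL1A1 averaged 8.30 and 8.38, COL3A1 5.00 and 5.04, and LUM 3.83 and 3.92 in SU-DHL4 and SU-DHL6. Whether other cells contributed to DCN and THY1 was not tested.

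Immunoglobulin transcripts beyond IGHM also set the lines apart. Of 14 measured immunoglobulin genes, 4 were higher and 1 lower in SU-DHL6. IGLC1, a lambda light chain constant region, read 9.07 and 8.84 in SU-DHL4 and 12.16 and 12.74 in SU-DHL6 (3.50, SE 0.21, adjusted p = 0.00148), and the lambda variable gene IGLV1-44 read 8.21 and 8.28 against 11.43 and 12.21 (3.57, SE 0.25, adjusted p = 0.00223). The light chain pseudogene IGLL3P was higher by 1.65, and JCHAIN, which joins polymeric immunoglobulin, was lower by -0.46 on the log2 scale. Light chain genes are near-identical copies that share probe sequence, so the 3 lambda names may stand for the same transcripts; of the 9 other probe sets of IGLC1 and IGLV1-44, 1 was called (3.49 for IGLC1). IGHM, IGLC1 and IGLV1-44 held their call, IGLL3P lost it without SU-DHL4 array 2, and JCHAIN lost it without either SU-DHL4 array or SU-DHL6 array 2.

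Downstream of the receptor, genes differed in both directions: 5 of 35 B-cell receptor signalling genes were higher and 7 lower in SU-DHL6, 34.3% in all against 9.61% of all genes (5 and 7 without SU-DHL6 array 2, 8 and 6 without array 1). The higher ones were CBLB, a ubiquitin ligase that restrains receptor signalling (1.69), PRKCB, protein kinase C beta (1.39), RASGRP3, a RAS activator (1.27), PTPN6, the phosphatase SHP-1 (1.21), and CSK, a kinase that inhibits SRC-family kinases (0.66). Among the lower ones, RASGRP1 fell from 8.08 and 8.36 in SU-DHL4 to 4.96 and 5.82 in SU-DHL6, so RASGRP1 and RASGRP3, which do the same step, went opposite ways. The calcium channel ITPR2 (-1.82), the SRC-family kinase BLK (-1.69), the adaptor TRAF3 (-1.47) and the RAP activator RASGRP2 (-1.12) were also lower. BLK was called at 1 of 2 probe sets and differed by -0.24 at the other. The core kinases and adaptors did not pass the test: SYK differed by -0.54 (adjusted p = 0.106), LYN by 0.04, BTK by -0.09, BLNK by 0.92 (adjusted p = 0.0672) and PLCG2 by 0.57 (adjusted p = 0.0934). TRAF3 held its call. The other 9 lost theirs without SU-DHL4 array 2 (adjusted p up to 0.192 for PTPN6), and all of those but ITPR2 also without SU-DHL4 array 1. PTPN6 lost its call without SU-DHL6 array 1 as well (adjusted p = 0.0845), and RASGRP2 without SU-DHL6 array 2 (adjusted p = 0.06).

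In the germinal centre programme, LMO2, a transcriptional adaptor used as a marker of germinal centre lymphoma, read 7.38 and 6.80 in SU-DHL4 and 8.96 and 9.73 in SU-DHL6 (2.25, SE 0.30, adjusted p = 0.0127). BCL6, the master repressor of the germinal centre, read 11.05 and 11.15 against 10.36 and 10.57 at the probe set used. That was a difference of -0.64 (SE 0.11, adjusted p = 0.0252) on a high level in both lines. Its other probe set was also called lower, with a larger difference of -1.32 (SE 0.10, adjusted p = 0.00254). Of the 25 genes of this list, 3 were higher (LMO2, the myosin MYO1E and SWAP70, a B-cell actin regulator) and 5 lower (VNN2, ITPKB, STAP1, BCL6 and DENND3). MME, the CD10 antigen, differed by -0.97 and GNA13, a G protein that confines germinal centre B cells, by -1.79, and neither passed the test (adjusted p = 0.0553 and 0.0597). RGS13, MYBL1, TCL1A and EZH2 were not called. MYO1E held its call, and the other 7 lost theirs without SU-DHL4 array 2, with adjusted p up to 0.254 for STAP1. DENND3 also lost its call without either SU-DHL6 array (adjusted p = 0.105 and 0.0858).

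Of 27 transcription factors of the B lineage, none was higher and 3 were lower in SU-DHL6, 11.1% against 9.61% of all genes. Beside MEF2C, TCF4 read 8.41 and 8.70 in SU-DHL4 and 5.49 and 5.38 in SU-DHL6 (SE 0.12, adjusted p = 0.000669), with 10.70 and 10.74 in Namalwa, and 4 of its 7 probe sets were called. LEF1, a partner of beta-catenin, was lower by -1.22, and lost its call without SU-DHL4 array 2. The median of the list was -0.33. PAX5, POU2AF1, POU2F2, IKZF1, SPIB, SPI1, ETS1 and IRF8 were not called, with IRF8 nearest (0.58, adjusted p = 0.0539). Without SU-DHL6 array 2 none was higher and 6 were lower, and without array 1, 2 were higher and 7 lower.

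Of 30 genes of activated B cells and plasma cells, 6 were higher and none lower in SU-DHL6 with all arrays in the fit. That was 20%, against 9.61% of all genes. The list median was 0.24, and 0.25 without SU-DHL6 array 2. Lower calls appeared when either SU-DHL6 array was left out. IRF4, a factor required for plasma cells, read 6.70 and 6.40 in SU-DHL4 and 9.10 and 8.74 in SU-DHL6 (2.37, SE 0.16, adjusted p = 0.0022) at the probe set used, while its other 2 probe sets differed by 0.19 and -0.04. PIM1, a serine kinase, was higher by 1.81, the cytokine receptor chain IL2RG by 1.55, XBP1, the factor of the secretory stress response, by 1.53 and TNFRSF17, the receptor BCMA, by 1.04. PRDM1, the repressor that ends the B-cell programme, was not called (0.23, adjusted p = 0.331). IRF4 and PIM1 held their call, while IL2RG, XBP1 and TNFRSF17 lost theirs without SU-DHL4 array 1 (adjusted p from 0.0575 for TNFRSF17 to 0.0986 for XBP1), TNFRSF17 also without SU-DHL6 array 2 (adjusted p = 0.078), and IL2RG and XBP1 also without SU-DHL4 array 2.

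HLA genes of both classes were higher in SU-DHL6. Of 18 MHC class II genes, 7 were higher and 1 lower in SU-DHL6 (44.4% called, list median 0.15), and of 20 class I and peptide processing genes 7 were higher and none lower (35% called, list median 0.27), beside 9.61% called and a median of 0.07 over all genes. HLA-DPA1, an alpha chain of the peptide receptor, read 9.73 and 9.61 in SU-DHL4 and 12.30 and 12.13 in SU-DHL6 (2.54, SE 0.10, adjusted p = 0.000716), and its 3 probe sets were all called higher. HLA-DMB and HLA-DMA, which load peptides onto class II molecules, were higher too, HLA-DMB by 1.58 (SE 0.10, adjusted p = 0.00157) and HLA-DMA by 1.32 (SE 0.14, adjusted p = 0.00616). HLA-DRB4 (2.89), HLA-DQB1 (1.31), HLA-DRB1 (1.22) and HLA-DRA (0.73) made up the rest. The other 2 probe sets of HLA-DRB4 differed by only 0.15 and 0.03 and were not called, and 3 of the 6 others of HLA-DQB1 were not called. RFXAP, a subunit of the complex that binds class II promoters, was lower by -0.52 on the log2 scale. Their transactivator CIITA was not called (0.13, adjusted p = 0.6), nor was CD74, the invariant chain (-0.27, adjusted p = 0.197). HLA-DOB, a partner that tempers peptide loading, was not called either, with duplicates far apart in SU-DHL6: 9.34 and 8.93 in SU-DHL4 and 8.61 and 10.01 in SU-DHL6.

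Class II genes share promoter elements called the X and Y boxes, the latter an inverted CCAAT sequence, through which they are switched on together. Stretches of 5 class II promoters are shown because 4 of the genes were called higher together and HLA-DOB was not. They come from RefSeq (GRCh38.p14, all on the minus strand, 5′ to 3′), and the capitals mark ATTGG or its reverse complement CCAAT and the X-box letters TGATGATG.
HLA-DRB1 (chr6:32589876-32589935): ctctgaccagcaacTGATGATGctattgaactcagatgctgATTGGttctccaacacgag
HLA-DQB1 (chr6:32666703-32666759): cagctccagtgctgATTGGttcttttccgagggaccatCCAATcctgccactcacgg
HLA-DMA (chr6:32953128-32953218): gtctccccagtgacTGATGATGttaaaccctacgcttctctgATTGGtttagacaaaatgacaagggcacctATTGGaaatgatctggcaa
HLA-DMB (chr6:32941032-32941124): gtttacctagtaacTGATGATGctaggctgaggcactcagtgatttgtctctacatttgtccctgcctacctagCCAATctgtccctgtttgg
HLA-DOB (chr6:32817058-32817140): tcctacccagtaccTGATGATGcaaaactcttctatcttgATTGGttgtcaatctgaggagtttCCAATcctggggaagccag
Both motifs were searched on both strands in the 250 bases before each start, and they do not overlap each other. TGATGATG was found for 4 of the 13 class II genes with a promoter in the table and ATTGG for 10, against 0.795% and 32% of the 35116 promoter windows searched. A gene was counted when any of its windows held the motif, whereas the background counts single windows, so the shares are not in the same unit. Of 18 class I and peptide processing genes with a promoter, 11 held ATTGG (61.1%) and none held TGATGATG. HLA-DOB, which was not called, holds both. The stretch of HLA-DQB1 shows no TGATGATG, and that of HLA-DMB shows CCAAT after its TGATGATG but no ATTGG. Whether the marked letters act as X or Y boxes was not tested.

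In class I, HLA-C read 9.11 and 9.29 in SU-DHL4 and 11.93 and 11.95 in SU-DHL6 (2.74, SE 0.12, adjusted p = 0.000717), with 12.87 and 13.09 in Namalwa. HLA-B was higher by 2.27 (SE 0.15, adjusted p = 0.00191), and all 4 probe sets of HLA-C and all 3 of HLA-B were called. HLA-E (1.94), HLA-G (1.14) and HLA-F (0.87) followed, with the immunoproteasome subunit PSMB10 (1.30) and the proteasome activator PSME1 (0.89). B2M, the light chain of every class I molecule, was equal in the mean, with 12.34 and 12.46 in SU-DHL4 and 12.48 and 12.33 in SU-DHL6. HLA probe sets can bind several HLA genes and their alleles unequally, so how much of each difference is that gene's own was not tested. HLA-DRB4, HLA-DPA1, HLA-DMB, HLA-DMA, HLA-DRB1, HLA-C and HLA-B held their call. HLA-DQB1, HLA-DRA, RFXAP, HLA-F and PSME1 lost theirs without SU-DHL6 array 2 (adjusted p from 0.064 for PSME1 to 0.136 for HLA-DRA), which left 5 genes higher and none lower in each list. HLA-DRA and RFXAP also lost theirs without SU-DHL6 array 1, HLA-DQB1, RFXAP and PSME1 without either SU-DHL4 array, and HLA-DRA and HLA-F without SU-DHL4 array 2. Without SU-DHL6 array 1, 6 class II and 8 class I genes were higher and 1 of each was lower. HLA-E, HLA-G and PSMB10 lost theirs without SU-DHL4 array 2 (adjusted p up to 0.249 for PSMB10).

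Of 40 genes of the NF-kB pathway and its targets, 9 were higher and 3 lower in SU-DHL6, with a list median of 0.20. NF-kB factors drive survival and inflammatory genes and are restrained by the inhibitors that they induce. The ligands LTB, TNF and LTA were higher by 4.02, 1.55 and 1.51, with LTA at 6.83 and 6.90 in SU-DHL4 and 8.50 and 8.25 in SU-DHL6 (SE 0.12, adjusted p = 0.00268). The inhibitors NFKBIA (1.58) and TNFAIP3 (1.11, called at 1 of 2 probe sets) and the activation marker CD83 (1.96) were also higher. The AP-1 subunit JUNB (-1.58), TRAF3, which holds back the alternative pathway (-1.47), and the kinase CHUK (-0.56) were lower. NFKB1 and REL were not called, with differences of -0.44 and -0.07. LTA, TRAF3 and the inhibitor NFKBIE (1.27) held their call. LTB, TNF, NFKBIA, TNFAIP3, CD83, JUNB and CHUK lost theirs without SU-DHL4 array 2 (adjusted p up to 0.185 for TNF), and CHUK also without either SU-DHL6 array.

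Of 47 chemokine and cytokine genes, 9 were higher and 1 lower, with a list median of 0.15. Among the receptors, IL10RA read 6.76 and 7.20 in SU-DHL4 and 8.89 and 9.06 in SU-DHL6 (1.99, SE 0.16, adjusted p = 0.00306), and IL2RG, the chain shared by several interleukin receptors, was higher by 1.55. CSF2RB, the shared chain of the receptors for IL3, IL5 and GM-CSF, was lower, with 8.80 and 8.60 in SU-DHL4 and 6.15 and 6.70 in SU-DHL6 (-2.28, SE 0.19, adjusted p = 0.00323). In the JAK-STAT list, 5 of 31 genes were higher (IL10RA, PIM1, IL2RG, IL4R and SOCS6) and 2 lower. STAT5B, a signal transducer, read 9.26 on both SU-DHL4 arrays and 7.78 and 7.87 in SU-DHL6 (-1.44, SE 0.10, adjusted p = 0.00241), and its 3 probe sets were all called. PIAS2, a SUMO ligase, was lower by -0.72, while STAT3 (0.17) and STAT6 (-0.03) were not called. CXCR4, CXCR5 and CCR7, chemokine receptors that place B cells in lymphoid tissue, were not called (0.98, 0.35 and 0.46). IL10RA, CSF2RB, PIM1 and STAT5B held their call, and IL2RG, IL4R, SOCS6 and PIAS2 lost theirs without either SU-DHL4 array, SOCS6 also without SU-DHL6 array 1.

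Interferon-induced genes split between the lines, 6 of 46 higher and 5 lower in SU-DHL6, with a list median of 0.11. The split moved to 4 higher and 6 lower without SU-DHL6 array 2 and to 9 and 3 without array 1. IRF2, an interferon regulatory factor, read 5.96 and 6.69 in SU-DHL4 and 8.51 and 8.60 in SU-DHL6 (2.23, SE 0.23, adjusted p = 0.00616). ISG15, a ubiquitin-like protein and a strong interferon target, went the other way, with 9.25 and 9.64 against 7.35 and 7.44 (-2.05, SE 0.15, adjusted p = 0.00248). The antiviral GTPase MX2 (1.99), UBE2L6, the enzyme that conjugates ISG15 (1.90), IRF7 (1.73) and the DNA sensor IFI16 (0.75) were higher. The nuclease ISG20 (-1.42), the membrane proteins IFITM2 (-1.36) and IFITM3 (-0.92) and the dNTP hydrolase SAMHD1 (-0.99) were lower. IRF2 and ISG15 held their call. MX2, UBE2L6, IRF7, IFI16, ISG20, IFITM2, IFITM3 and SAMHD1 lost theirs without SU-DHL4 array 2, with adjusted p up to 0.181 for MX2, IFI16 and SAMHD1 also without SU-DHL6 array 2, and ISG20 and IFITM3 without SU-DHL6 array 1.

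The PI3K, AKT and mTOR list held 3 higher and 5 lower genes of 33 (1 and 4 without SU-DHL6 array 2, 3 and 3 without array 1). TCL1B, an AKT coactivator, read 7.80 and 7.72 in SU-DHL4 and 10.33 and 10.25 in SU-DHL6 (2.53, SE 0.13, adjusted p = 0.00116), while its relative TCL1A was not called (0.78, adjusted p = 0.0996). The mTOR inhibitor DEPTOR (0.74) and the insulin receptor substrate IRS1 (0.72) were higher. PHLPP1, a phosphatase of AKT, was lower by -2.13 at 1 of 2 probe sets, with duplicates about 1 log2 unit apart in both lines, and PIK3R3 (-1.26), PIK3CG (-0.57, at 1 of 2 probe sets) and PIK3C2B, subunits of PI3 kinases, and the mTOR activator RHEB (-0.72) were lower too. Of 39 genes of G-protein regulation and S1P signalling, 5 were lower and none higher: the receptor GPR18 (-2.58), the G protein subunit GNG7 (-1.83), the S1P phosphatase SGPP1 (-1.03), P2RX5 (-0.68) and GPR132 (-0.56). That share, 12.8%, stood beside 9.61% over all genes, and 2 genes were higher and 6 lower without SU-DHL6 array 2, 4 and 5 without array 1. TCL1B, PIK3R3 and GNG7 held their call. The other genes of both lists that were called and are named here lost theirs without SU-DHL4 array 2, with adjusted p up to 0.236 for GPR18, and DEPTOR, IRS1, PIK3C2B, SGPP1 and P2RX5 lost theirs without SU-DHL6 array 2, and DEPTOR, PHLPP1, RHEB, PIK3CG and GPR132 without SU-DHL6 array 1.

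Cytoskeletal genes were called for 15 of 61, 10 higher and 5 lower (10 and 8 without SU-DHL6 array 2, 11 and 8 without array 1), and members of 1 family differed in opposite directions. The beta-tubulins TUBB2B (5.12) and TUBB2A (2.64) were higher and TUBB6 (-3.77) lower in SU-DHL6. TUBB6 read 9.72 and 9.76 in SU-DHL4 and 5.90 and 6.04 in SU-DHL6 (SE 0.13, adjusted p = 0.000475). TUBB2A and TUBB2B are close copies whose probes may share targets. MYO1E was higher by 1.89, while the motor MYO5A (-1.13), the calcium-binding protein S100A4 (-2.20), TMSB10, which binds free actin (-0.97), and the alpha-tubulin TUBA4A (-0.61) were lower. Among 48 adhesion genes (3 higher and 8 lower without SU-DHL6 array 2), 5 were higher, among them ALCAM (1.86) and CD47, the signal against phagocytosis (1.25), and 7 were lower, among them ITGB2, the beta chain of leukocyte integrins (-1.48), and the tetraspanins TSPAN13 and TSPAN3 (-1.90). ITGAL, the alpha chain that pairs with ITGB2, was higher by 0.97. MYO1E, TUBB6, TUBB2B, MYO5A and S100A4 held their call. TUBB2A, TMSB10, TUBA4A, ALCAM, CD47, ITGB2, TSPAN13 and TSPAN3 lost theirs without either SU-DHL4 array (adjusted p up to 0.208 for TSPAN3), ITGAL without SU-DHL4 array 1 or either SU-DHL6 array, and CD47 also without SU-DHL6 array 2.

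Of 30 cholesterol and fatty acid genes, 7 were higher and 2 lower in SU-DHL6, with a list median of 0.22 (5 and 2 without SU-DHL6 array 2, 9 and 2 without array 1). EBP, an isomerase of the late pathway, read 8.20 and 8.16 in SU-DHL4 and 10.83 and 10.74 in SU-DHL6 (2.61, SE 0.09, adjusted p = 0.000475). Of its other 2 probe sets, however, 1 was called higher (1.62) and 1 lower (-1.37). TM7SF2 (1.12), MSMO1 (1.11) and SQLE (0.89), enzymes before and after the first sterol ring closure, and the desaturase FADS2 (0.93) were higher, while ABCA1, the cholesterol exporter (-1.69), and the elongase ELOVL6 (-1.47) were lower. The serine pathway gene PHGDH read 6.74 and 7.19 in SU-DHL4 and 10.12 and 10.70 in SU-DHL6 (SE 0.23, adjusted p = 0.00208), and with it PCK2, mitochondrial PEP carboxykinase (1.71), AARS1, alanyl-tRNA synthetase (1.42), and the transporter SLC1A4 (0.64) were higher. CBS (-1.36), which makes cystathionine, and the transporters SLC7A11 (-0.66) and SLC38A1 (-0.54) were lower, so that 4 of 33 genes of amino acid supply were higher and 3 lower, against 10 and 5 without SU-DHL6 array 1. EBP, PHGDH, PCK2 and AARS1 held their call. The other genes named here lost theirs without SU-DHL4 array 2, with adjusted p of 0.0806 for TM7SF2 and 0.0905 for CBS, and FADS2, SLC1A4, SLC7A11 and SLC38A1 also without SU-DHL6 array 2, and SLC7A11 without SU-DHL6 array 1.

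Of 36 glycolysis and hypoxia genes (13.9% called), 2 were higher, ALDOC (2.10, with 9.10 and 10.52 on the SU-DHL6 arrays) and PGM1 (1.36), and 3 were lower, PFKM (-0.84), PDK1 (-0.50) and HIF1A (-0.43). Without SU-DHL6 array 2 these counts were 3 and 4, and without array 1 they were 7 and 2. Of 56 oxidative phosphorylation genes (8.93% called), NDUFB6 (0.51) was higher and 4 were lower: the complex I subunits NDUFA5 (-1.73), NDUFV2 (-1.44) and NDUFC1 (-0.87) and the ATP synthase subunit ATP5F1B (-0.64). Among 42 oxidative stress genes, GSTT1 was higher (0.87) and GSR, glutathione reductase (-1.80), and MGST2 (-1.40) were lower, and the counts were 2 and 4 without SU-DHL6 array 2 and 5 and 7 without array 1. With all arrays, 7.14% of the oxidative stress list was called, against 9.61% of all genes. GSR and MGST2 held their call. The remaining 11 lost theirs without SU-DHL4 array 2, with adjusted p of 0.244 for ALDOC, and PDK1, HIF1A and ATP5F1B also without SU-DHL6 array 2, and HIF1A and NDUFB6 without SU-DHL6 array 1.

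In the unfolded protein response, which adjusts the folding capacity of the endoplasmic reticulum, 6 of 26 genes were higher and 1 lower in SU-DHL6, with a list median of 0.14. XBP1 read 6.33 on both SU-DHL4 arrays and 8.15 and 7.58 in SU-DHL6 (SE 0.21, adjusted p = 0.0125). HERPUD1, a component of the degradation machinery, read 9.55 and 9.76 against 10.81 and 10.92 (1.21, SE 0.11, adjusted p = 0.00394). EDEM1 (1.19), CRELD2 (1.02) and the stress kinase EIF2AK3 (0.58) were higher and the chaperone HSP90B1 (-1.31) was lower, at 1 of 2 probe sets. Of 46 secretory pathway genes, 3 were higher (SSR1, SEC23B and SSR2) and 6 lower, led by the coat subunit SEC24B (-1.73), SRPRA (-1.26), the receptor for the signal recognition particle, and SRP72 (-1.03), a subunit of that particle. Of 26 heat shock genes (7.69% called, against 9.61% of all genes), HSPA13 was higher (0.58) and HSPH1 lower (-1.09). HERPUD1 and SRP72 held their call, XBP1, EDEM1, CRELD2, EIF2AK3, HSP90B1, SEC24B, SRPRA, HSPA13, HSPH1, SSR1, SEC23B and SSR2 lost theirs without either SU-DHL4 array, EIF2AK3, SSR1, SEC23B and SSR2 also without SU-DHL6 array 2, and HSPA13 without SU-DHL6 array 1.

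Of 54 cell division genes, 6 were lower and none higher (11.1%, against 9.61% of all genes), with a list median of -0.18. Of 35 cyclins, kinases and inhibitors, 2 were higher and 4 lower. CCND3, a cyclin of B-cell expansion, read 9.33 and 9.37 in SU-DHL4 and 10.82 and 10.93 in SU-DHL6 (1.53, SE 0.13, adjusted p = 0.0031), and the mitotic brake WEE1 was higher by 1.03. CENPE, a kinetochore motor, read 8.57 and 8.63 against 7.31 and 7.33 (-1.28, SE 0.09, adjusted p = 0.00225), and TFDP2, a partner of E2F, was lower by -1.94. CCNA2 (-1.45), CCNG2 (-1.42), CCNB2 (-0.67), CKS2 (-1.31), MAD2L1 (-1.11), FOXM1 (-0.65) and RFC4 (-0.61) were lower too. MYC read 11.59 and 11.68 in SU-DHL4 and 10.70 and 9.75 in SU-DHL6 (-1.41, SE 0.30, adjusted p = 0.0474). Of 35 MYC target and ribosome biogenesis genes, 4 were lower, among them PPAT (-0.96), GAR1 (-0.93) and ODC1 (-0.48), and none higher. That share, 11.4%, was near the 9.61% over all genes, and the list median was -0.12. Without SU-DHL6 array 2 the list median was 0.02 and higher calls appeared. CCND3, CENPE and TFDP2 held their call. WEE1, CCNA2, CCNG2, CCNB2, CKS2, MAD2L1, FOXM1, RFC4, MYC, PPAT, GAR1 and ODC1 lost theirs without SU-DHL4 array 2, MAD2L1 and ODC1 also without SU-DHL6 array 2, and CCNB2, RFC4, PPAT and ODC1 without SU-DHL6 array 1.

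In the BCL2 family, 3 of 22 genes were called (13.6%, against 9.61% of all genes). MCL1 was higher by 0.57 at 1 of 5 probe sets, while its other 4 differed by -0.89 to 0.18 without being called, and BCL2L13 (-0.89) and BAG1 (-0.85) were lower, while BCL2, BCL2L1 and BCL2A1 were not called, with differences of -0.12, 0.51 and -0.02. None of 31 death receptor and caspase genes was called (0 higher and 2 lower without SU-DHL6 array 2, 3 and 1 without array 1), and none of 25 cancer-testis genes. Of 20 p53 targets (10% called, near the 9.61% over all genes), ZMAT3 (-0.71) and MDM4 (-0.57) were lower. Of 31 TGF-beta genes (6.45% called, below the 9.61% over all genes), 2 were higher: the receptor TGFBR2 (1.73, at 1 of 2 probe sets) and LTBP3 (0.78). Shares below the 9.61% over all genes were also called among 54 chromatin regulators (3.7%: ARID5B, 2.15, and HDAC3, 0.47, higher), 54 ribosomal protein genes (3.7%: RPL24, 0.67, and RPS10, 0.42, higher) and 31 histone genes (3.23%: H1-2, 0.69, higher). Without SU-DHL6 array 2, 1 chromatin regulator was higher and 3 were lower. CCND2, the remaining D-type cyclin gene in the fixed set of genes, was not called (-0.01). TGFBR2 held its call, and MCL1, BCL2L13, BAG1, ZMAT3, MDM4, LTBP3, ARID5B, HDAC3, RPL24, RPS10 and H1-2 lost theirs without SU-DHL4 array 2. MCL1, ZMAT3, MDM4, LTBP3, HDAC3, RPS10 and H1-2 also lost theirs without SU-DHL6 array 2, and ZMAT3, HDAC3 and RPS10 without SU-DHL6 array 1.

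Many genes rest on a single probe set. Of 75 called genes chosen for naming that have several probe sets, 34 had no other one called. Beside those already described, they include ALCAM, BAG1, CBLB, CD47, ELOVL6, HSPA13, MYO5A, NDUFA5, PIAS2, PIK3R3, PRKCB, RASGRP2, RPS10, SEC23B, SOCS6, SQLE, SSR1 and TRAF3. What the unlike probe sets measure was not tested.

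**Figure D3:**
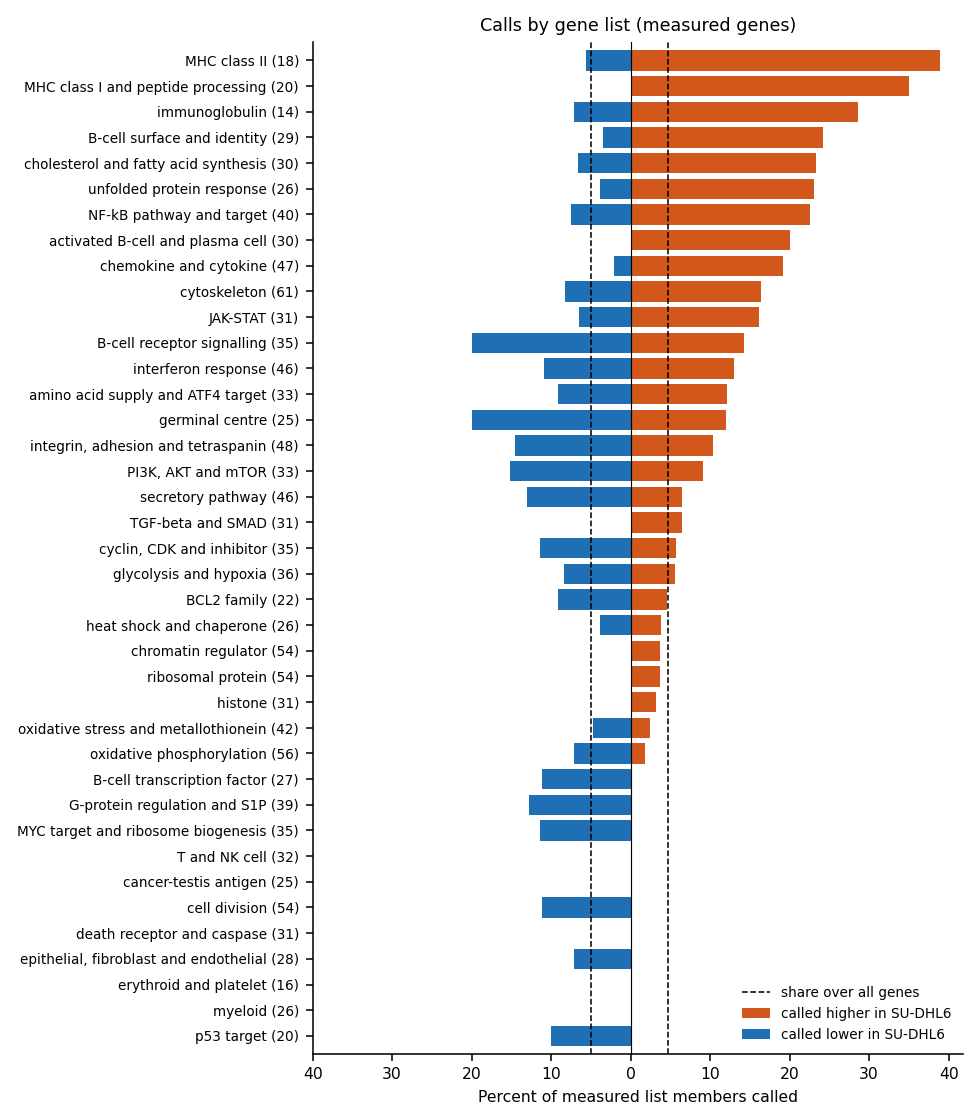
Percent of the measured genes of each list shown called higher (right, orange) and lower (left, blue) in SU-DHL6 with all arrays in the fit, with the number of measured genes in brackets and dashed lines at 4.66% and 4.95%, the shares over all genes. The MHC class II and class I lists reach farthest to the right, the B-cell receptor signalling and germinal centre lists farthest to the left.

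Called genes were not spread evenly over chromosomes. Chromosome 6 held 96 genes called higher (14.3% of 673) and 13 called lower (1.93%). Chromosome 4 had 12.6% lower and 2.88% higher, chromosome 12 had 10.7% lower and 1.34% higher, and chromosome 8 had 11.8% lower and 6.91% higher. To see whether this followed position, 5975 genes above the median level were put in the order of the RefSeq annotation and divided into 239 runs of 21 to 28 neighbouring genes, a view chosen after the chromosome counts were seen. Of these 5975 genes, 7.36% were called higher and 7.83% lower, which is the background for counts in runs. The median difference lay within 0.2 of 0 in 190 runs, was above 0.4 in 9 and below -0.4 in 12. In all 21 of these runs it had the same sign in each of the 4 pairs of a SU-DHL6 with a SU-DHL4 array. The runs were picked on the medians of these same arrays, so that agreement was largely set by the choice. Copy number was not measured, and no test was made of these runs.

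The first 8 runs of chromosome 6, from DUSP22 to TRAM2, had medians of 0.21 to 0.70. Of their 207 genes, 175 were higher in SU-DHL6, 72 were called higher and none lower. From TMEM14A onward the medians of the 5 remaining runs lay between -0.07 and 0.16, with 11 of 125 genes called higher and 10 lower. The step fell between neighbouring runs: MRPL2 to TRAM2 had a median of 0.56 with 11 of 25 genes called higher, and TMEM14A to ORC3 one of 0.16 with 1 of 25. Against Namalwa, whose arrays both comparisons share, the first 8 medians were 0.10 to 0.69 for SU-DHL6 and -0.21 to 0.00 for SU-DHL4. Over all 392 measured genes of that stretch at any level, 83 were called higher (21.2%) and 1 lower; without SU-DHL6 array 2 the counts were 67 and 5, without array 1 they were 127 and 4, and with the control ratio as a covariate 50 and 4. Without SU-DHL4 array 1 or 2 they were 32 and 1 or 23 and 0. The medians between the SU-DHL6 duplicates in these runs were 0.10 to 0.27.

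In other stretches the runs were lower. In 2 runs at the start of chromosome 8, from ARHGEF10 to UBXN8, 27 of 52 genes were called lower and none higher, and the run from CHMP7 to UBXN8 had the lowest median of all, -0.93. On chromosome 4, from FRYL to ZNF330, 36 of 81 genes were called lower and 1 higher, with run medians of -0.65 to -0.51. The end of chromosome 3, from SLC25A36 to RPL35A, had 28 of 76 lower and 1 higher (-0.61 to -0.35), whereas a run in its middle, SHQ1 to GTF2E1, had 10 of 26 higher and none lower (0.56). Runs on chromosome 12 from CREBL2 to CACNB3 (17 of 50 lower) and from TSFM to TDG (15 of 50 lower), and on chromosome 13 from MPHOSPH8 to SUCLA2 (11 of 46 lower), were also below, and the last run of chromosome 1, from URB2 to ZNF692, was above (0.59, 9 of 24 higher). Against Namalwa, the chromosome 4 medians were -0.76 to -0.55 for SU-DHL6 and -0.15 to -0.03 for SU-DHL4, and those at the end of chromosome 3 were -0.17 to -0.11 for SU-DHL6 and 0.36 to 0.46 for SU-DHL4. The run medians describe only genes above the median level. Over all measured genes, the median was -0.02 for chromosome 8 (111 genes), 0.02 for chromosome 4 (237) and -0.02 for the end of chromosome 3 (178). It was -0.01 (106) and -0.07 (119) for chromosome 12 and -0.07 (98) for chromosome 13. For the higher stretches it was 0.22 on chromosome 6 (392), 0.18 from SHQ1 to GTF2E1 (83) and 0.19 from URB2 to ZNF692 (55). Read over all measured genes, the counts called lower without SU-DHL6 array 2 were 31 against 32 for the chromosome 8 stretch, 40 against 47 for chromosome 4 and 27 against 29 for the end of chromosome 3. They fell from 20 to 14 and from 20 to 16 for the chromosome 12 stretches and from 14 to 6 for chromosome 13. Without SU-DHL4 array 2 the counts lower were 9 for chromosome 8, 8 for chromosome 4, 1 for the end of chromosome 3, 5 and 4 for chromosome 12 and 0 for chromosome 13, and without SU-DHL4 array 1 they were 16, 14, 3, 8, 11 and 1. The genes higher from SHQ1 to GTF2E1 went from 13 to 1 without SU-DHL4 array 1 and to 3 without array 2, and those from URB2 to ZNF692 from 10 to 4 and 3.

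**Figure D4:**
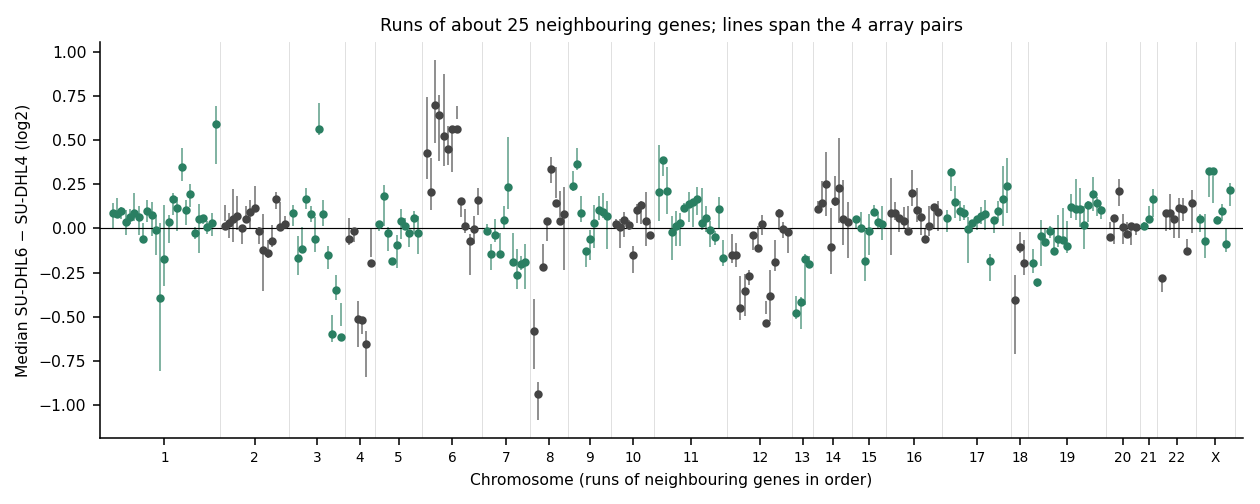
Median log2 difference (SU-DHL6 minus SU-DHL4) of 239 runs of neighbouring genes in chromosome order, with vertical lines from the lowest to the highest of the 4 array pairs and colours alternating by chromosome. The first 8 runs of chromosome 6 lie above 0.2, the remaining 5 between -0.07 and 0.16, and the lowest point, -0.93, is on chromosome 8.

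Several of the functional counts above overlapped these stretches. All 7 class II genes called higher, 5 of the 7 class I genes (HLA-B, HLA-C, HLA-E, HLA-F and HLA-G) and 5 of the 9 NF-kB genes (LTB, TNF, LTA, CD83 and NFKBIE) lay in the chromosome 6 stretch, as did IRF4, PIM1, CCND3, TUBB2A and TUBB2B. The differences of TUBB2B (5.12), LTB (4.02) and HLA-DRB4 (2.89, at 1 of 3 probe sets) were well above the run medians around them, which did not pass 0.70. So were those of other genes of that stretch, among them HLA-C, TUBB2A, HLA-DPA1, IRF4 and HLA-B. Many genes were named for large differences, so such values are partly set by that choice. On chromosome 4, the stretch held CENPE and MAD2L1 of the cell division genes called lower, CCNA2 and CCNG2 of the cyclins, GAR1 and PPAT of the MYC targets, 4 of the 6 secretory genes called lower (SEC24B, SEC24D, SEC31A and SRP72), and LEF1, STAP1, JCHAIN, ELOVL6, SLC7A11, NDUFC1 and MGST2. BLK and GSR lay in the chromosome 8 stretch, BCL6, TFDP2 and RFC4 at the end of chromosome 3, and CBLB, CD47, ALCAM and CD80 in the run of higher genes on that chromosome. What part position has in any of these differences was not tested.

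The SU-DHL6 duplicates differed from each other in named genes, which bears on what could be called. Over all genes, 166 were more than 2-fold higher and 36 more than 2-fold lower on array 2 than on array 1 (1.69%), against 23 and 5 between the SU-DHL4 duplicates. CDKN1A, the cell cycle inhibitor p21, read 8.82 on SU-DHL6 array 1 and 12.11 on array 2, with 8.05 and 7.88 in SU-DHL4. GADD45A, a stress and DNA damage response gene, read 6.45 and 10.05, on either side of its SU-DHL4 values of 7.92 and 8.41. RGS1, a regulator of chemokine receptor signalling (5.40 and 8.62), NRN1, neuritin (5.77 and 8.80), and S100A10, an annexin partner (8.75 and 11.73), also were about 3 log2 units higher on array 2. BIK, a pro-apoptotic BCL2 relative (10.14 and 8.06), the splicing factor SRSF1 (11.67 and 9.63), the co-chaperone STIP1 (10.09 and 8.31), the translation factor EIF5A (11.63 and 9.90) and TMEM259 (7.92 and 6.27) were lower on array 2. None of these 10 genes was called between the lines, for example CDKN1A with a difference of 2.50 (SE 0.99, adjusted p = 0.213).

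The list with the largest such shift was that of p53 targets, with a median of 0.52 between SU-DHL6 array 2 and array 1 and 5 of 20 genes more than 2-fold higher on array 2 (CDKN1A, GADD45A, TNFRSF10B, SESN1 and TRIAP1, the last 3 named after their values were seen), against a median of 0.00 and none in SU-DHL4. In the glycolysis and hypoxia list 6 of 36 genes were more than 2-fold higher, with a median of 0.27, and the B-cell receptor signalling list had a median of 0.28 with 1 of 35 genes more than 2-fold higher. The MYC target list shifted the other way, with a median of -0.33. Without SU-DHL6 array 2, 1 p53 target was called higher and 2 lower, and without array 1, 7 were called higher and 1 lower, so calls on these genes rested on which SU-DHL6 array was used. The part of the control ratio of array 2 in these shifts was not tested, and culture and array cannot be told apart. By position, 1 run on chromosome 1, from USP33 to PTBP2, shifted by 0.72 between the SU-DHL6 duplicates, the largest of all runs, so its median of -0.39 between the lines rested mainly on array 1: the 4 array pairs ranged from -0.81 to 0.03.

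**Figure D5:**
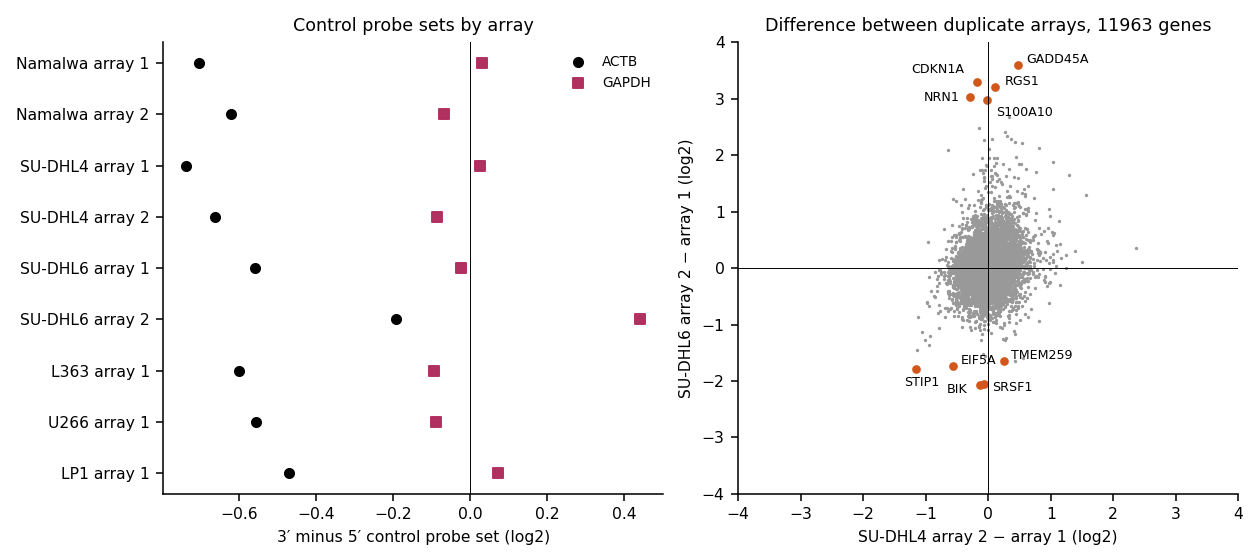
Left, 3′ minus 5′ difference (log2) of the ACTB and GAPDH control probe sets on all 9 arrays. Right, array 2 minus array 1 (log2) in SU-DHL6 against SU-DHL4, 1 point per gene, with the 10 genes that differed most between the SU-DHL6 arrays named. SU-DHL6 array 2 has the highest value for both controls, and the spread is wider along the SU-DHL6 axis.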

How the data were processed

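The authors deposited log2 intensity values of 22283 Affymetrix probe sets for 9 arrays, made with RMA per the submitters' processing notes. Which RMA release was used, and whether the 9 arrays went through it jointly, is not given in the sources used here. After 68 control probe sets were left out, 22215 were fitted in limma 3.58.1 (R 4.3.3) with line as the factor over the 6 arrays of Namalwa, SU-DHL4 and SU-DHL6, and SU-DHL6 minus SU-DHL4 was tested with Benjamini-Hochberg adjustment over all of them. The number of arrays limits the precision. Of these probe sets, 19065 carried 1 gene symbol in the platform annotation, 1043 several and 2107 none, and the probe set with the highest mean level over the 6 lines stood for each of 11963 genes. The text names the 15 called genes with the largest differences in each direction whose arrays do not overlap, leaving out XIST and genes of the Y chromosome, 62 measured genes of a set of 66, up to 5 called genes per direction in each of 40 lists (1 of which is not reported here), and the 5 genes per direction that differed most between the SU-DHL6 duplicates. Members and lists were chosen with earlier results of these data known. Runs of neighbouring genes and the counts along chromosome 6 without single arrays were added after seeing the data. The fit was tested on simulated data. Alternatives covered the arrays fitted, a replicate block, a covariate, scaling, filters, probe set choice, variance model and threshold. Promoter windows came from RefSeq (GRCh38.p14), without chromosome 8.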

Additional observations from a re-analysis of the deposited data

Results flagged for a closer look

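The control probe sets, which were left out of the main comparison between the lines, set SU-DHL6 array 2 apart. Its difference between the 3′ and 5′ probe sets was -0.19 for ACTB and 0.44 for GAPDH on the log2 scale. The other 8 arrays lay between -0.74 and -0.47 for ACTB and between -0.09 and 0.07 for GAPDH, so both values were above all others. Its part in the differences between the lines was not tested beyond leaving the array out and fitting the ratio as a covariate.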

How the results depend on the processing

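There were 1892 probe sets called between SU-DHL6 and SU-DHL4, and 1150 genes. They were 852 and 516 with only the 4 SU-DHL arrays, 940 and 761 without probe sets of the x and s type, 603 and 371 at an adjusted p under 0.01, 877 and 526 with at least a 2-fold difference, and 113 and 68 when limma's treat tested against a minimum of 1 on the log2 scale. Leaving out 1 array gave 319 to 2545 probe sets and 196 to 1487 genes, lowest without SU-DHL4 array 2 and highest without SU-DHL6 array 1, the lone array being assumed to vary like the other lines. With the replicate number as a block 828 genes were called, 796 of them among the 1150. The numbers were not treated as pairing the arrays, since the duplicate differences (array 2 minus array 1) correlated over probe sets at -0.44 for Namalwa with SU-DHL4, -0.15 for Namalwa with SU-DHL6 and 0.20 for SU-DHL4 with SU-DHL6. The control ratio as a covariate gave 862 (615 shared), and the other scalings, filter, variance model and choices of probe set gave 1063 to 1311. Of 197 named genes that were called, 32 kept their call under every setting, 39 lost it without SU-DHL6 array 2, 27 without SU-DHL6 array 1, 122 without SU-DHL4 array 1, 138 without SU-DHL4 array 2, 60 with the covariate and 39 with the block. GADD45A, not called, with a difference of 0.09, turned to -2.33 with the covariate and -1.71 without SU-DHL6 array 2, against 1.88 without SU-DHL6 array 1, and the cause was not tested. Without x and s probe sets another probe set stood for ITGB1 (0.13), RASGRP2 (0.0025) and ABCA1 (0.0213), whose differences then turned positive.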
